A study of Mus musculus with 4 samples.

Results

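The Dlk1-Dio3 imprinted microRNA (miRNA) cluster is a run of miRNA genes on distal mouse chromosome 12. Its assays were chosen by name. Of the 750 miRNA assays on the chips, 76 carried the name of a cluster miRNA once the species prefix and the arm suffix were removed. They stood for 46 miRNA numbers of the 47 looked for, 24 of them with more than 1 assay, and miR-341 had no assay among those used here. Assays of the opposite strand written with # were kept apart, 12 in number. All 46 numbers were found in RefSeq on chromosome 12. The 47 genes, Mir341 included, lay on the plus strand between positions 109563692 and 109743795 (GRCm38.p6).

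MiRNAs are short RNAs that pair with messenger RNAs and repress them, and positions 2 to 8 of the mature strand, the seed, do most of the pairing. At the Dlk1-Dio3 locus the protein-coding genes Dlk1, Rtl1 and Dio3 are expressed from the paternal chromosome, while the noncoding RNAs Meg3, antisense Rtl1, Rian and Mirg and the miRNAs within them are expressed from the maternal one. The miRNAs are best known from placenta, brain and muscle. Those of antisense Rtl1 pair fully with the Rtl1 messenger RNA and can cleave it.

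The tissue was synovium, the lining of joints, from around the tibiotalar (ankle) joint of C57BL/6J mice in the serum transfer arthritis model, in which K/BxN serum brings on joint inflammation. The groups were 2 arthritic pools at day 10, the peak of inflammation, each of 10 mice, and 2 non-arthritic pools at day 0, each of 3 mice. The labels name C57BL/6J as host and K/BxN as serum source for all 4 pools. Each value is thus of a pool, so that the spread between single mice is not in the data, and fewer cells of a type cannot be told apart from less RNA per cell.

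Each pool was read in 2 technical wells by TaqMan real-time PCR. The Ct is the cycle at which an assay's signal crosses a threshold, so that a Ct lower by 1 cycle means about 2 times the RNA. Of the 750 assays, between 223 and 271 gave a Ct in the arthritic pools and 287 to 294 in the non-arthritic pools. Arthritic pool 2 stood apart from the other 3: among panel A assays with a Ct in every pool, the median was 15.9 there and 12.5 in arthritic pool 1, against 12.6 and 12.8 in the non-arthritic pools. Of the skeletal muscle miRNAs looked up as markers, 4 in number, 2 gave a Ct in each arthritic pool and all 4 in each non-arthritic pool, and miR-133a fell by 7.07 ± 0.78 log2 units (SE, limma adjusted p = 0.00421). As a list, the muscle markers had a summed level of 6.996 and 6.17 log2 units in the arthritic pools and 9.07 and 10.3 in the non-arthritic pools. The summed level of the 4 fibroblast miRNAs was 6.66 and 6.23 in the arthritic pools and 4.83 and 4.02 in the non-arthritic pools, but 0 of the 3 tested passed, with miR-214 at 2.32 and miR-199a-3p at -0.69. That of the 2 endothelial miRNAs was 6.68 and 7.21 in the arthritic pools and 9.12 and 9.51 in the non-arthritic pools, and neither passed. Myeloid miR-142-3p rose by 3.83 ± 0.97 and smooth muscle miR-143 fell by 4.12 ± 1.00 (SE, limma adjusted p = 0.0402 and 0.0373). The Ct of miR-142-3p was 16.0 in arthritic pool 2, not below the 15.6 and 15.5 of the non-arthritic pools. Myeloid miR-223 (1.77), smooth muscle miR-145 (-2.09) and a human-named miR-143 assay (-2.06) did not pass (limma adjusted p = 0.150, 0.117 and 0.0936). The 2 neuronal markers, miR-124 and miR-9, had no Ct in any pool. The part of these cell types in the results below was not tested.

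The mature sequences of the cluster miRNAs detected in every pool are shown first, because the seed decides which messenger RNAs each can pair with. They are given in order along the locus, from RefSeq (GRCm38.p6), with the seed in capitals. The arm is part of the assay name for 4 of the 12. For the other 8 (miR-127, miR-136, miR-411, miR-329, miR-381, miR-382, miR-134 and miR-410) the name gives no arm, and the arm was assigned from background knowledge of the older naming, so that their sequences and seeds are likely rather than stated by the files.
mmu-miR-337-5p: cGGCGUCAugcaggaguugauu
mmu-miR-127-3p: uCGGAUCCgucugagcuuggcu
mmu-miR-434-3p: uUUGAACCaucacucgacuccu
mmu-miR-136-5p: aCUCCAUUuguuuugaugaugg
mmu-miR-411-5p: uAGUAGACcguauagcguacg
mmu-miR-329-3p: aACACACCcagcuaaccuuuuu
mmu-miR-381-3p: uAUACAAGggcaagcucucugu
mmu-miR-382-5p: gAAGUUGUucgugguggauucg
mmu-miR-134-5p: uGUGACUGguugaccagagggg
mmu-miR-485-3p: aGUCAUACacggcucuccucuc
mmu-miR-409-3p: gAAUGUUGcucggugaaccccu
mmu-miR-410-3p: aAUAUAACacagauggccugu

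These 12 miRNAs had 12 different seeds, so that no pair of them shared one. For 9 of the 12 no other mature miRNA searched had the same seed. The search covered the RefSeq table, which holds 1679 names, except the miRNAs of a single chromosome other than that of the cluster. miR-329-3p shared its seed with miR-362-3p, whose gene lies outside the cluster. The miR-362-3p assay changed by 1.12 ± 0.74 log2 units and did not pass the test (SE, limma adjusted p = 0.280). The seeds of miR-411-5p and miR-410-3p were shared with miR-7229-5p and with miR-344d-3p and miR-344e-3p, for which no assay was used here. The strands were 21 or 22 bases long, with 7 taken as 3p arms and 5 as 5p arms, and their GC content ran from 36.4% to 59.1%. The sequence of miR-376c and the arm of the assay named mmu-miR-337 could not be given.

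About as many cluster miRNAs were detected in synovium as were not: 23 of the 46 miRNA numbers had a Ct in at least 1 pool, and 13 in all 4. Of the 76 assays, 49 gave no Ct in any pool (64.5%), 27 gave one in at least 1 pool, and 15 in all 4. Of the 662 miRNA assays that were neither members nor opposite strands, 55.7% gave no Ct in any pool. Among the cluster assays this held for 12 of the 14 named for rat or human (85.7%) and 37 of the 62 named for mouse (59.7%). An assay counted as detected in a pool where at least 1 of its 2 wells had a Ct. In arthritic pool 1, 25 cluster assays were detected (32.9%), and in arthritic pool 2, 15 (19.7%). The non-arthritic pools each had 25 (32.9%). The count thus differed between the 2 arthritic pools and not between arthritic pool 1 and the non-arthritic pools. Of the cluster assays, 10 were detected in arthritic pool 1 and not in arthritic pool 2, and 0 the other way round, against 55 and 7 over all 750 assays.

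**Figure D1:**
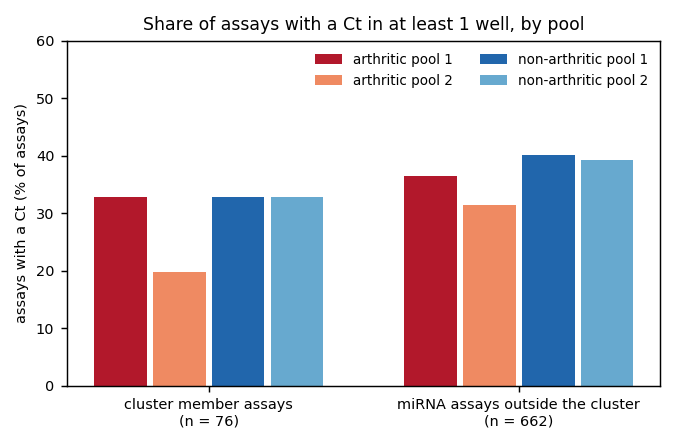
Share of assays with a Ct in at least 1 well (vertical axis, percent of assays) in each pool, for the 76 cluster assays and for the 662 other miRNA assays, opposite strands of the cluster left out. Arthritic pool 2 is the lowest in both sets, at 19.7% of the cluster assays and 31.4% of the others.

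Detection differed along the locus. Of the 13 assays of the genes near Meg3, at the start of the locus, 3 were detected in at least 1 pool and all were of miR-337. Those of miR-770, miR-673, miR-493, miR-540 and miR-665 had no Ct. Of the 9 assays of the antisense Rtl1 group, 6 were detected, for 5 miRNAs (miR-431, miR-433, miR-127, miR-434 and miR-136). In the Rian group 1 of 2 assays was detected, and in the Mirg group, from Mir379 to Mir410, 17 of 52. A gap of 90.7 kb separates Mir370, in Rian, from Mir379, the first gene of the Mirg group.

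**Figure D2:**
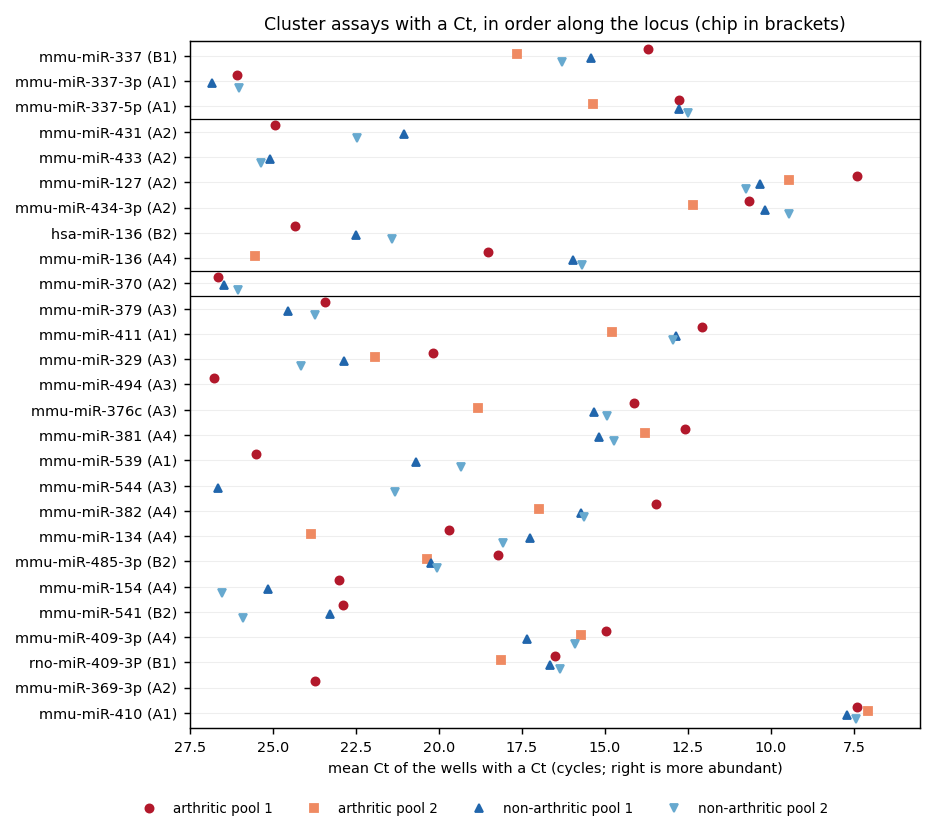
Mean Ct (horizontal axis, cycles, low Ct at the right) of the 27 cluster assays with a Ct in at least 1 pool, from the first gene of the locus at the top to the last at the bottom, with the chip in brackets and lines between the Meg3-side, antisense Rtl1, Rian and Mirg groups. The lowest Ct, 7.06, is that of miR-410 in arthritic pool 2, and miR-136 has the widest range, from 15.7 in non-arthritic pool 2 to 25.5 in arthritic pool 2.

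Levels were compared between the groups over the 209 assays detected in all 4 pools, 15 of them in the cluster. An assay's level is its Ct subtracted from the median Ct of these assays within its pool and panel, in log2 units, and a positive change means higher in the arthritic pools. At a threshold of 0.05 on limma's Benjamini-Hochberg adjusted p, 21.5% of the 209 assays passed, with 9.57% higher and 12.0% lower in the arthritic pools. In the cluster 3 rose (miR-127, miR-329 and miR-485-3p), 1 fell (miR-136) and 11 did not pass. The median log2 change of the 15 was 1.84, beside 0.19 for all 209 and 0.058 for the 194 outside the cluster, with 12 above 0 and 3 below. An assay entered only if it was detected in arthritic pool 2, so that the 15 do not stand for the whole cluster.

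The arthritic pools lay outside the range of the non-arthritic pools for 11 of the 15, above it for 9 and below it for 2. Over all tested assays this was so for 71.3%, with 39.2% above and 32.1% below. With 2 pools per group the smallest exact permutation p for 1 assay is 0.333, so the calls depend on limma pooling the spread of all assays. The median gap between the arthritic pools was 1.35 log2 units over the 15 assays and that between the non-arthritic pools 0.46. Over all 209 tested assays these gaps were much the same, 1.38 and 0.52.

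**Figure D3:**
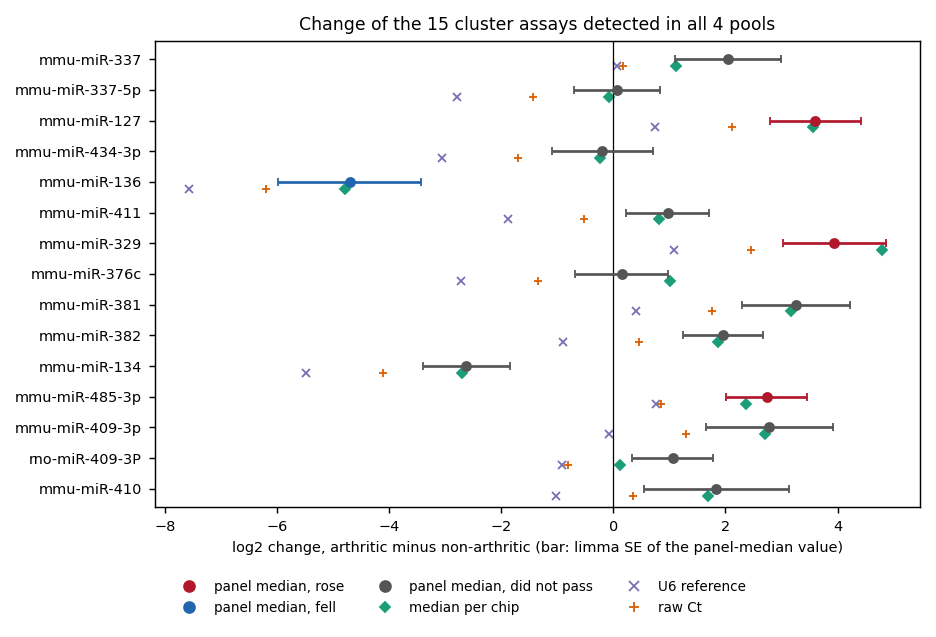
Log2 change, arthritic minus non-arthritic (horizontal axis), of the 15 cluster assays detected in all 4 pools, in order along the locus, with limma's SE as bars, and the same change with the median of each chip, with U6 RNA as reference and with raw Ct. miR-127, miR-329, miR-381, miR-485-3p and miR-337 lie above 0 and miR-136 and miR-134 below 0 under all 4 scalings, while U6 moves every assay to the left.

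Near Meg3, miR-337 was read by 3 assays that gave different results. The 5p assay had levels of -0.22 and 0.54 in the arthritic pools and -0.13 and 0.32 in the non-arthritic pools. The groups overlapped, and the change was 0.067 ± 0.76 (SE, 95% interval -1.79 to 1.92, limma adjusted p = 0.949). The assay named mmu-miR-337, on panel B, had levels of 2.80 and 0.77 in the arthritic pools and 0.11 and -0.64 in the non-arthritic pools. Here both arthritic pools were higher, but the change of 2.05 ± 0.95 did not pass (SE, limma adjusted p = 0.138). The third assay, for the 3p arm, had a Ct of 26.1 in arthritic pool 1, none in arthritic pool 2, and 26.8 and 26.03 in the non-arthritic pools, in 1 well each of the last 2.

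With the panel median, the antisense Rtl1 group held a rise and the only fall of the cluster past the threshold, within 2.54 kb. Of these calls, only the rise of miR-127 passed with the panel mean, the median per chip or quantile normalization. Only the fall of miR-136 passed with U6, snoRNA or both as reference, and neither passed with raw Ct. miR-127, known in mouse to cleave Rtl1 messenger RNA in placenta, had a Ct of 7.41 and 9.45 in the arthritic pools and 10.3 and 10.7 in the non-arthritic pools. Both arthritic pools had the lower Ct, before any scaling. Its levels were 5.13 and 6.45 in the arthritic pools and 2.30 and 2.07 in the non-arthritic pools. It rose by 3.61 ± 0.81 log2 units, or 12.2-fold (SE, n = 2 pools each, limma adjusted p = 0.0307). The call held in 13 of 21 alternatives. With U6, snoRNA or both as reference the change was 0.75, 0.92 and 0.86 and did not pass (limma adjusted p = 0.804, 0.642 and 0.710), and with raw Ct it was 2.11 (0.366). The assigned mature strand lies at chr12:109592888-109592909, within Mir127, a noncoding gene. The hsa-miR-127-5p assay had no Ct in any pool.

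miR-136, encoded 2.41 kb downstream in the same antisense transcript, went the other way. Its Ct was 18.5 and 25.5 in the arthritic pools and 16.0 and 15.7 in the non-arthritic pools. Only 1 of its 2 wells in arthritic pool 2 gave a Ct. Its levels were -5.97 and -9.62 in the arthritic pools and -3.31 and -2.87 in the non-arthritic pools, so that the arthritic pools were both lower but 3.65 log2 units apart. It fell by 4.70 ± 1.28 log2 units (SE, limma adjusted p = 0.0492, 95% interval -7.83 to -1.58). This call was at the edge of the threshold. It held in 6 of the 19 alternative settings in which miR-136 could be tested, and a Ct limit of 24 or a requirement for both wells left it untested. The size was not settled: the change was -2.35 without arthritic pool 2, -6.48 without arthritic pool 1, and -7.56, -7.39 and -7.45 with U6, snoRNA or both as reference. The assigned mature strand lies at chr12:109595331-109595352, within Mir136.

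A second assay for miR-136, named for the human miRNA and on panel B, also had its highest Ct in arthritic tissue. It read 24.3 in 1 well of arthritic pool 1, nothing in arthritic pool 2, and 22.5 and 21.4 in the non-arthritic pools. The assay for the opposite strand, hsa-miR-136#, had a Ct of 24.01 in arthritic pool 1, none in arthritic pool 2 and 23.6 in both non-arthritic pools. This strand thus lay, where arthritic tissue gave a Ct, within about a cycle of the non-arthritic pools.

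miR-434-3p, encoded between miR-127 and miR-136, had levels of 1.88 and 3.55 in the arthritic pools and 2.46 and 3.36 in the non-arthritic pools. The groups overlapped (change -0.20 ± 0.90, SE, limma adjusted p = 0.876). The 5p arm of the same hairpin had no Ct in any pool. miR-431, described in muscle progenitor cells, had a Ct of 24.9 in arthritic pool 1, none in arthritic pool 2, and 21.0 and 22.5 in the non-arthritic pools. miR-433 was detected in the non-arthritic pools only, with Ct of 25.1 and 25.4, near the highest Ct recorded on the chips.

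Since the level depends on the scaling, ratios of pairs of cluster miRNAs within a pool were also taken, to which the panel median does not contribute. Of the 14 pairs, 5 were read on a single chip, 7 on different chips of a panel and 2 on different panels, and in the last 9 a shift between chips or panels does not cancel. The absolute ratio mixes abundance with the efficiency of each assay, and only its difference between pools is used. The pairs were 11 neighbours on the locus among the tested panel A assays and 3 others set by hand. These were miR-127 over miR-136, which joins the rise and the fall of the antisense Rtl1 group, and pairs of assays of miR-409-3p and of miR-337. Within a panel the group difference of a ratio equals the difference between the log2 changes of its 2 assays. The ratios are thus another view of the same changes and no separate evidence. The exact permutation p was 0.333, the smallest possible, for each of the 12 whose groups did not overlap (two-sided, 0.389 after Benjamini-Hochberg adjustment over the 14). The share without overlap was not computed for pairs outside the cluster, and 71.3% of all 209 tested assays did not overlap when taken singly. Neighbouring pairs also share an assay, so the 14 are not separate results. Of the 14 pairs, 2 overlapped: miR-381 over miR-382 and miR-409-3p over miR-410.

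miR-127 and miR-434-3p were read on the same chip. The log2 ratio of miR-127 over miR-434-3p was 3.24 and 2.90 in the arthritic pools and -0.17 and -1.29 in the non-arthritic pools. The difference was 3.80 log2 units, and the 2 arthritic pools, whose panel A median Ct differed by 3.36 cycles, lay 0.34 apart in this ratio. miR-127 over miR-136, read on chips A2 and A4, gave 11.1 and 16.1 in the arthritic pools and 5.61 and 4.94 in the non-arthritic pools, a difference of 8.31 log2 units, although here the arthritic pools differed by 4.97. With 1 well behind miR-136 in arthritic pool 2, this second ratio is the less certain.

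**Figure D4:**
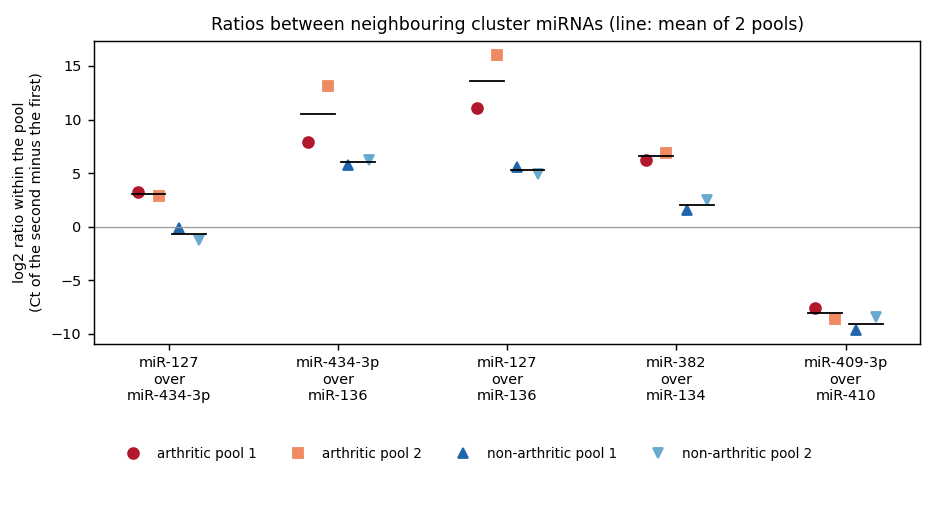
Log2 ratio between 2 cluster miRNAs within each pool (vertical axis, Ct of the second minus Ct of the first), with the mean of each group as a line. For miR-127 over miR-434-3p and miR-382 over miR-134 the pools of each group lie close together and the groups apart, while for miR-409-3p over miR-410 the groups overlap.

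In the Rian group miR-370 was the only miRNA with a Ct. It read 26.7 in 1 well of arthritic pool 1, nothing in arthritic pool 2, and 26.5 and 26.05 in the non-arthritic pools. Its second assay, on panel B, had no Ct. miR-370 was therefore at the limit of detection and no difference could be seen.

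In the Mirg group, known in neurons to be induced by activity through Mef2, 10 assays were tested, of which 2 rose and 8 did not pass. Of all 209 assays tested, 21.5% passed and 9.57% rose. miR-329 had a Ct of 20.2 and 21.9 in the arthritic pools and 22.8 and 24.2 in the non-arthritic pools, with 1 well in arthritic pool 2. In non-arthritic pool 2 the duplicate wells of miR-329 lay 3.69 cycles apart. The lower of them read 22.31, close to the 21.92 of the single well of arthritic pool 2. The wells lay 0.24 cycles apart in arthritic pool 1 and 0.46 in non-arthritic pool 1. Its levels were -7.64 and -6.01 in the arthritic pools and -10.2 and -11.3 in the non-arthritic pools. Both arthritic pools were higher, and it rose by 3.94 ± 0.91 log2 units, or 15.4-fold (SE, limma adjusted p = 0.0324). On its chip, A3, the second listed well of arthritic pool 2 gave a Ct for 24 miRNA assays and the first for 36, and without that second well the change was 3.67 ± 0.76 (SE, limma adjusted p = 0.0391). miR-329 held its call in 7 of the 20 alternatives in which it could be tested, and in 0 of the 7 other scalings. The change stayed at 3.83 with the panel mean, 4.80 with the median per chip and 3.63 by quantile normalization, close to the threshold (limma adjusted p = 0.0537, 0.0540 and 0.0671). It was 1.09 to 1.26 with U6, snoRNA or both as reference and 2.45 with raw Ct. With the lowest Ct of the wells it was 2.84 and with a Ct limit of 24 it was 2.95 (limma adjusted p = 0.0581 and 0.0567). The assigned mature strand lies at chr12:109713541-109713562, within Mir329.

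miR-485-3p, from the hairpin of Mir485, had levels of -1.70 and -1.93 in the arthritic pools and -4.70 and -4.41 in the non-arthritic pools. The pools of each group lay within 0.3 log2 units, closer than for most of the cluster. Its duplicate wells lay 0.18 and 1.53 cycles apart in the arthritic pools and 1.20 and 0.73 in the non-arthritic pools. It rose by 2.73 ± 0.72 log2 units, or 6.65-fold (SE, limma adjusted p = 0.0462). The call held in 10 of 21 alternatives. With U6 as reference the change was 0.76, with U6 and snoRNA 1.66 and with raw Ct 0.86, and none of these passed (limma adjusted p = 0.804, 0.412 and 0.718). With the pool number as a block its adjusted p was 0.0536. Its Ct was 18.2 and 20.3 in the arthritic pools and 20.2 and 20.1 in the non-arthritic pools, so that in arthritic pool 2 the difference appears only once the higher median Ct of that pool is taken into account. The hsa-miR-485-5p assay had no Ct.

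miR-381 had levels of -0.042 and 2.12 in the arthritic pools and -2.53 and -1.91 in the non-arthritic pools. The groups did not overlap, but the change of 3.26 ± 0.96 did not pass (SE, limma adjusted p = 0.0629). Its Ct was 12.6 and 13.8 in the arthritic pools and 15.2 and 14.7 in the non-arthritic pools. This mean Ct was lower in both arthritic pools before any scaling, but the wells of arthritic pool 2 and non-arthritic pool 2 overlapped. The duplicate wells lay 1.55 cycles apart in arthritic pool 2 and 2.41 in non-arthritic pool 2. The lower well of non-arthritic pool 2 read 13.53, below the higher well of arthritic pool 2 at 14.56. A rat-named assay of miR-381 on the same chip had no Ct in any pool. miR-409-3p had levels of -2.42 and 0.18 in the arthritic pools and -4.72 and -3.09 in the non-arthritic pools, a change of 2.79 ± 1.14 (SE, limma adjusted p = 0.112). The rat-named assay of miR-409-3p, on panel B, gave 1.06 ± 0.73 (SE, limma adjusted p = 0.294). Neither assay of miR-409-3p passed, and both had the arthritic pools above the non-arthritic range. The sizes differed. The log2 ratio of the mouse-named to the rat-named assay was 1.53 and 2.41 in the arthritic pools. In the non-arthritic pools it was -0.72 and 0.45. These assays lie on different panels, so that a shift between panels does not cancel. With the median per chip the changes were 2.70 and 0.13. The rat-named assay had a Ct of 16.5 and 18.1 in the arthritic pools and 16.6 and 16.4 in the non-arthritic pools.

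The genes of miR-382 and miR-134 lie 0.293 kb apart, and both miRNAs were read on chip A4. miR-134, known in rodent neurons to repress Limk1 in dendritic spines, had levels of -7.17 and -7.96 in the arthritic pools and -4.62 and -5.26 in the non-arthritic pools. Both arthritic pools were lower, but the change of -2.62 ± 0.77 did not pass (SE, limma adjusted p = 0.0629). miR-382 had levels of -0.91 and -1.07 in the arthritic pools and -3.07 and -2.81 in the non-arthritic pools, a change of 1.96 ± 0.72 the other way (SE, limma adjusted p = 0.0936). The log2 ratio of miR-382 over miR-134 was 6.26 and 6.89 in the arthritic pools and 1.55 and 2.44 in the non-arthritic pools. It was higher in both arthritic pools, by 4.58 log2 units in the mean. The duplicate wells of miR-134 differed by 3.19 and 3.32 cycles in arthritic pool 2 and non-arthritic pool 2.

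miR-410, the last gene of the locus, had almost the same Ct in all pools, 7.40 and 7.06 in the arthritic pools and 7.71 and 7.44 in the non-arthritic pools. Its levels were 5.14 and 8.84 in the arthritic pools and 4.93 and 5.38 in the non-arthritic pools. The groups overlapped, and the change of 1.84 ± 1.29 did not pass (SE, limma adjusted p = 0.302). miR-410 was the only tested cluster assay whose Ct was lower in arthritic pool 2 than in arthritic pool 1. Without arthritic pool 1 its change was 3.74 log2 units, which passed, and without arthritic pool 2 it was 0.52, which did not. The value of miR-410 thus depended on which arthritic pool was used.

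miR-411 had levels of 0.48 and 1.10 in the arthritic pools and -0.22 and -0.14 in the non-arthritic pools, a change of 0.97 ± 0.74 (SE, limma adjusted p = 0.336). miR-376c, of a group whose precursors are edited from adenosine to inosine in brain, had levels of -1.58 and -2.93 in the arthritic pools and -2.69 and -2.11 in the non-arthritic pools. Its groups overlapped, with a change of 0.15 ± 0.83 (SE, limma adjusted p = 0.901) and a single well in arthritic pool 2. Neither assay passed, and their 95% intervals, -0.83 to 2.77 for miR-411 and -1.88 to 2.18 for miR-376c, include changes of more than 2 log2 units.

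The other detected assays of the Mirg group had no Ct in arthritic pool 2. miR-539 had the widest gap among them, with a Ct of 25.5 in arthritic pool 1 and 20.7 and 19.3 in the non-arthritic pools, in both wells of each. miR-379, the first gene of the group, had a Ct of 23.4 in arthritic pool 1 and 24.5 and 23.7 in the non-arthritic pools. miR-154 had 23.0 in arthritic pool 1 and 25.1 and 26.5 in the non-arthritic pools, in 1 well each of the last 2. miR-541 had 22.9 in arthritic pool 1 and 23.3 and 25.9 in the non-arthritic pools. miR-539 was thus less abundant in the arthritic pool that measured it, miR-154 more abundant, and miR-379 close to the non-arthritic pools by Ct.

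These assays were tested without arthritic pool 2, where 23 cluster assays entered and the single arthritic pool was assumed to vary like the other group. In that fit miR-539 fell by 5.13 ± 0.79 log2 units (SE, limma adjusted p = 0.0165) and miR-154 rose by 3.16 ± 0.81 (SE, limma adjusted p = 0.0463). miR-431 changed by -2.83 ± 0.83 and miR-379 by 1.07 ± 0.64, and neither passed (SE, limma adjusted p = 0.0632 and 0.246). Of the others, miR-541, miR-337-3p, miR-370 and hsa-miR-136 did not pass. miR-127, miR-329, miR-485-3p and miR-136 passed here too, with miR-381 and miR-382, and this fit called 97 of all 245 assays it tested. With undetected pools set to the highest recorded Ct instead, neither miR-539 nor miR-154 passed (limma adjusted p = 0.0679 and 0.142).

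A few assays were detected in 1 group alone. miR-544 had a Ct in 1 well of each non-arthritic pool, 26.7 and 21.3, and in no arthritic pool. miR-369-3p and miR-494 had a Ct in 1 well of arthritic pool 1 only, 23.7 and 26.8. A single well of 8 is no measure of a difference. Of the opposite strands, miR-376b# had a Ct of 22.9 in arthritic pool 1, none in arthritic pool 2, and 22.1 and 23.0 in the non-arthritic pools, though the assay of the main strand, mmu-miR-376b, had none. hsa-miR-411# had 24.4 in arthritic pool 1 and 25.6 in non-arthritic pool 1, and hsa-miR-154# had 26.4 in 1 well of arthritic pool 1.

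The authors' deposited table of group averages holds 11 of the 15 tested cluster assays. In the authors' deposited table miR-127 differed by 3.45 log2 units, miR-329 by 3.54, miR-485-3p by 2.24 and miR-134 by -2.81. Of the 11, 10 had the same sign as here, and miR-337-5p had the opposite one, at -0.40 in the authors' deposited table. miR-136, miR-381, miR-409-3p and miR-410 were not among the rows of that table.

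The direction of the cluster depended on the scaling. With U6 as reference in place of the panel median, the median of all 209 assays moved to -2.51 and that of the cluster to -0.91. Past the threshold 0 of the 15 cluster assays were higher and 2 lower (miR-134 and miR-136). Of all 209 assays 1 was higher and 54 were lower, so the share of lower cluster assays was not above that of all assays. A change of reference moves all assays of a panel by the same amount, so their order within a panel cannot change. That the cluster median again lay above that of all assays was thus largely fixed in advance. miR-127, miR-329, miR-485-3p, miR-381 and miR-337 kept a change above 0 in each setting in which they were tested, and miR-136 and miR-134 one below 0. Some settings, such as other moderation or a replicate block, could not turn the sign. Without either non-arthritic pool no cluster assay passed, and none of all assays did by limma's adjusted p, with 42 and 25 of all assays at an unadjusted p under 0.05 without pool 1 and pool 2.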

How the data were processed

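Per the labels' protocols, RNA was isolated with the mirVana kit and reverse transcribed with a TaqMan kit. The authors deposited BioMark Ct scores, per the file headers, for 6096 wells. Of these 2083 had a Ct, and 999 marks a well without one. The authors also deposited group averages on a log2 scale with their fold (ratio), with no stated normalization in the labels or files. In the Ct sheets 6 columns without a name were not used.

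Wells of a pool were averaged, a Ct under 35 counted as detected, and assays detected in all 4 pools (134 on panel A, 75 on panel B) were scaled to the median of pool and panel. The group comparison used limma 3.58.1 under R 4.3.3 (two-sided, Benjamini-Hochberg over 209 assays, 4.02 prior and 2 residual degrees of freedom). The median SE was 0.87. The labels call the pools biological replicates. All member assays with a Ct are named. Same-numbered pools correlated at 0.074 in their deviations, so the numbers were not treated as pairs. Sequences and positions came from RefSeq tables of GRCm38.p6, and the files name no build. The members and lists were chosen with earlier results of these data known. Alternatives were other scalings, detection rules and moderation, a replicate block, and fits without each pool. Plots used matplotlib 3.10.9 (Python 3.11.15).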

Additional observations from a re-analysis of the deposited data

Results flagged for a closer look

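The assay mmu-miR-376a#, for the opposite strand of a cluster hairpin and thus in none of the comparisons, had a mean Ct of 26.7 in arthritic pool 1, in both wells, and no Ct in arthritic pool 2 or in the non-arthritic pools. The main strand, mmu-miR-376a, had no Ct in any pool.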

How the results depend on the processing

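Over all alternatives in which they were tested, miR-127, miR-329, miR-485-3p, miR-381, miR-337, miR-136 and miR-134 kept their direction. The direction could not turn with other moderation, the replicate block or undetected pools at the highest recorded Ct. These settings leave the change of an assay detected in all pools as it was. The number of all assays changed was 45, against 25 with the panel mean, 25 with undetected pools at the highest recorded Ct, 8 with raw Ct and 0 without moderation (55 at an unadjusted p under 0.05). Cluster assays that fell numbered 0 in place of 1 with the panel mean, the median per chip, quantile normalization, both wells needed, Ct limits of 24 and 26, the chip A3 well of arthritic pool 2 left out, and robust or trended moderation. Neither direction kept a call (0) with raw Ct, without moderation or with undetected pools at the highest Ct. With U6, snoRNA or both as reference 0 cluster assays rose and 2 fell. Of all 209 assays 1, 4 and 3 rose and 54, 54 and 47 fell. The cluster median was -0.91, -0.73 and -0.79, against medians of all assays of -2.51, -1.91 and -2.17. The median was 1.12 with the median per chip, 0.17 with raw Ct and 1.06 with undetected pools at the highest Ct. With a replicate block 66 assays changed, 4 cluster assays rose (miR-127, miR-329, miR-381 and miR-409-3p) and 1 fell (miR-136), while miR-485-3p did not pass (limma adjusted p = 0.0536). With each pool left out in turn, 0 to 121 assays changed, 0 to 7 cluster assays rose, 0 to 2 fell, and the median was 1.07 to 1.85. The calls without an arthritic pool were 121 (without pool 1) and 97 (without pool 2), and without either non-arthritic pool 0.

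The reversals were among assays that did not pass with the panel median. Under U6, snoRNA and both, the change was -0.90, -0.73 and -0.79 for miR-382, -1.02, -0.85 and -0.90 for miR-410, -1.89, -1.72 and -1.77 for miR-411, -2.71, -2.54 and -2.59 for miR-376c, and -2.79, -2.62 and -2.68 for miR-337-5p. Under U6 it was -0.070 for mmu-miR-409-3p and -0.91 for rno-miR-409-3P (-0.018 under both references). With raw Ct it was -0.81 for rno-miR-409-3P, -0.52 for miR-411, -1.35 for miR-376c and -1.43 for miR-337-5p. miR-434-3p ranged from -0.65 to 0.68 with each pool left out, and was at 0.30 without non-arthritic pool 2 and 0.68 without arthritic pool 1. miR-376c was at -0.84 with the lowest well, -0.12 without the chip A3 well, -0.14 without non-arthritic pool 1 and -0.48 without arthritic pool 1 (-0.48 to 1.35 over the pools left out). miR-337-5p was at -0.043 with the panel mean, -0.079 per chip, -0.086 with both wells, -0.012 and -0.0060 at Ct limits of 26 and 24, -0.38 with the lowest well, -0.20 without the chip A3 well and -0.16 without non-arthritic pool 1 (-0.16 to 0.50 over the pools left out). The cause of these changes was not tested. Ct above about 26 lie at the limit of detection.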
